A study of Mus musculus with 12 samples.

Results

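The genes of mouse chromosome 11 were followed in order of their start, as 907 of the 11105 genes whose signal was tested in mouse epiblast stem cells. A gene entered through its brightest probe set with a single gene symbol, provided that its mean log2 signal over the 12 arrays reached 5.97 (a signal of 62.6), the median over the probe sets that were not controls. Of 1443 genes placed on chromosome 11 with such a probe set, 917 passed and 526 did not. The rule then left out 10 of those that passed, namely Grb10, Ccng1, Serpinf1, Col1a1, Hoxb9, Hoxb3, Hoxb2, Rpl19, Rpl27 and Rpl38. The rule used the mean signal and the position of a gene, not a comparison between lines. However, chromosome 11 was picked out because a lower signal in the haploid lines was already known from these arrays, so the counts and medians below are a description and support nothing on their own. Just inside the signal threshold lay Aanat (mean signal 63.2) and Slc36a3 (63.4), and just outside it Map3k14 (62.4) and Abca8b (62.0).

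Epiblast stem cells are pluripotent cells in a state like that of the epiblast just after the embryo has implanted. All 12 arrays came from cells kept in N2B27 supplemented by bFGF and Activin A, with 3 biological replicates of each of 4 lines. A pair of diploid lines, EpiSC-1 and EpiSC-2, was labelled with the strain B6D2F1, a cross of C57BL/6 and DBA/2, and a pair of haploid lines of the same names with the strain 129Sv. Strain and ploidy divide the arrays identically and cannot be told apart. The names EpiSC-1 and EpiSC-2 were taken to mean separate lines, and the same number in both ploidies links nothing. The labels do not say whether the replicates were separate cultures, and the share of cells that were still haploid at harvest is not given in the sources used here. Each line is a single line, and a p-value between lines measures only the spread between its 3 samples.

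Mouse chromosome 11 is dense in genes and carries, among many others, the Hoxb cluster, genes of DNA replication and repair and subunits of Polycomb and Mediator complexes. In a haploid cell every autosomal gene is present in a single copy, and a change in the dose of a whole chromosome reaches the RNA of its genes to differing degrees. Here RNA was measured and DNA copy number was not. MAS5 scales every array to a common mean, so a signal shows the level of a gene relative to the rest of its array, and a difference in total RNA between haploid and diploid cells would not appear.

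The promoters of 750 of the 907 genes could be matched by symbol in RefSeq (GRCm38.p6). Those of 4 genes are shown because the genes lay in unlike promoters and all had lower signals in the haploid than in the diploid lines. Ddc, aromatic L-amino acid decarboxylase, and Vps54, a subunit of the tethering complex that returns vesicles to the Golgi, had the deviations most typical of the first and second of 12 stretches of the chromosome. Hmmr, a spindle protein of mitotic cells, and Dcxr, dicarbonyl and L-xylulose reductase, had the lowest p of their stretch. Each run is the 250 bases before the annotated start, written 5′ to 3′ on the strand of the gene. Capitals mark a CCAAT box by those letters, a GC box by the letters GGGCGG and a TATA box by the letters TATAAA, each searched on both strands. The regions are chr11:11898145-11898394 on the minus strand for Ddc, chr11:21238782-21239031 on the plus strand for Vps54, chr11:40733438-40733687 on the minus strand for Hmmr and chr11:120727285-120727534 on the minus strand for Dcxr.
Ddc: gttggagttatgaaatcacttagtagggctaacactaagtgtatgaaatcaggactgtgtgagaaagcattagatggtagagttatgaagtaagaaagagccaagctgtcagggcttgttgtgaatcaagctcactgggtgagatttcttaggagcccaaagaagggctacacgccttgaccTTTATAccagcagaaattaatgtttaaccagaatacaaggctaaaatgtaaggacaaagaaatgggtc
Vps54: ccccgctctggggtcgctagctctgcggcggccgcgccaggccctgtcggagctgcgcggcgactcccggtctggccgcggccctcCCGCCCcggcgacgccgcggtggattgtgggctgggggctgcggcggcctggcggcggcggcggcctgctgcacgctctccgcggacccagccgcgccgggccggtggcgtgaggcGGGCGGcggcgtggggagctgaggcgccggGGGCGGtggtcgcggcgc
Hmmr: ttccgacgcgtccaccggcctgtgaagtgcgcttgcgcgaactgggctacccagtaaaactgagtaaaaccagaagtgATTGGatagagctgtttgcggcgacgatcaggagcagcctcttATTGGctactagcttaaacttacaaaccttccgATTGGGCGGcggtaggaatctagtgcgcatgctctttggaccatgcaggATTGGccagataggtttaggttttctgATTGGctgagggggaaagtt
Dcxr: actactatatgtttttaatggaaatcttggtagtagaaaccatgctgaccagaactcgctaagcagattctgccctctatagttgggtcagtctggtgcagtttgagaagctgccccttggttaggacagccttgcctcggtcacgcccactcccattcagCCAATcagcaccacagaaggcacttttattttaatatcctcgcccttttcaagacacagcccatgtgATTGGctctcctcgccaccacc

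The Ddc run had a GC content of 40.8%, 1 CpG and 1 TATA box. The Vps54 run had a GC content of 83.2%, 43 CpG and 3 GC boxes. The Hmmr run held 5 CCAAT matches and 1 GC box, which overlaps a CCAAT match, and the Dcxr run held 2 CCAAT matches. Over the 750 matched promoters the median GC content was 60.8%, as it was over the 9023 matched promoters of all tested genes, against 52.0% over the 27025 promoters of the table. CCAAT lay in 38.3% of the chromosome 11 promoters and in 37.0% of those of tested genes, against 34.5% in the whole table. For the GC box these shares were 63.2%, 62.4% and 32.9%, and for the TATA box they were 4.93%, 5.99% and 13.0%. In each measure the chromosome 11 genes lay near all tested genes. Both lay apart from the whole table in GC content, GC box and TATA box, and only slightly so in the CCAAT box.

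Signals of chromosome 11 genes were lower in both haploid lines than in both diploid lines, by a small amount spread over most of the chromosome. The median log2 difference, haploid minus diploid, was -0.31 over the 907 genes, a ratio of 0.808, against 0.00 over all 11105 genes tested, and 73.6% of the genes lay below 0 against 49.8% of all genes. With lines as a random block in limma, 207 genes passed a Benjamini-Hochberg adjusted p of 0.05, of which 27 rose and 180 fell in haploid cells. The background over all genes was 17.2% called, with 9.69% higher and 7.54% lower, and 19.8% of the chromosome 11 genes were called lower. A change of at least 2-fold was reached by 24 of the genes that rose and by 42 of those that fell. The share of all genes that reached 2-fold is not given here, so these counts have no background. In bulk samples, fewer cells of a type and less RNA per cell cannot be told apart. These p-values rest on 2 lines of each ploidy, and on simulated data the comparison called more unchanged genes than its threshold allows. The calls and adjusted p-values of haploid against diploid, here and below, are subject to that limit. With the 4 line means as the units 20 of the 907 genes were called, 6 higher and 14 lower. The share of all genes called with line means is not given here.

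Each array was set against the mean of the 4 lines, gene by gene. In diploid EpiSC-1 the median deviation of the 907 genes was 0.24, 0.22 and 0.22 on the log2 scale in replicates 1 to 3, and in diploid EpiSC-2 it was 0.10, 0.05 and 0.10. In haploid EpiSC-1 it was -0.10, -0.13 and -0.11, and in haploid EpiSC-2 -0.17, -0.15 and -0.18. The arrays of no line overlapped those of another, and the medians went down from diploid EpiSC-1 through diploid EpiSC-2 and haploid EpiSC-1 to haploid EpiSC-2. The genes of the 18 other autosomes had medians between -0.03 and 0.05 in the same arrays. The share of chromosome 11 genes above the mean of the 4 lines was 71.8% to 74.2% in the diploid EpiSC-1 arrays, 57.0% to 64.1% in diploid EpiSC-2, 36.3% to 39.9% in haploid EpiSC-1 and 26.5% to 27.5% in haploid EpiSC-2.

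**Figure D1:**
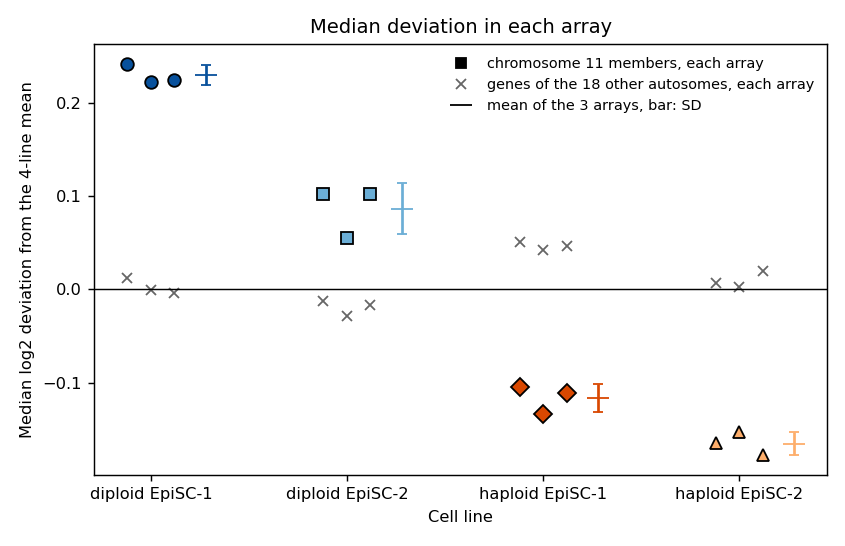
Median log2 deviation from the mean of the 4 lines in each of the 12 arrays, for the 907 genes of chromosome 11 (filled symbols) and for the genes of the 18 other autosomes (crosses), with the mean and SD of the 3 arrays of a line at the side. All chromosome 11 medians of diploid arrays lie between 0.05 and 0.24 and all those of haploid arrays between -0.18 and -0.10, while the crosses lie between -0.03 and 0.05.

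Against the mean of the 4 lines, diploid EpiSC-1 had 527 of the 907 genes called higher and 139 lower in limma's fit of 4 group means (adjusted p under 0.05), with a median of 0.22. The background for this line was 66.4% called, 34.3% higher and 32.1% lower. Diploid EpiSC-2 had 384 higher and 197 lower with a median of 0.09, beside a background of 64.4% called, 30.3% higher and 34.1% lower. When each array was centred on its median these were 476 higher and 145 lower, with a median of 0.17. The background just given belongs to the arrays without centring, and that of the centred arrays is not given here. Haploid EpiSC-1 had 208 higher and 425 lower with a median of -0.11, beside 69.8% called, 37.5% higher and 32.3% lower. Haploid EpiSC-2 had 83 higher and 487 lower with a median of -0.17, beside 58.2% called, 29.1% higher and 29.1% lower. The deviations of a gene sum to 0 over the lines, so the 4 sets of counts are not independent of each other.

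The most frequent pattern of signs was a level above the mean in both diploid lines and below it in both haploid lines, in 352 genes (38.8%, against 19.6% of all genes tested). The opposite pattern was found in 82 genes (9.04%, against 21.1%). Diploid EpiSC-1 had the highest mean of the 4 lines for 440 genes (48.5%, against 27.2% of all genes), and haploid EpiSC-2 for 42 genes (4.63%, against 17.3%). In 284 genes all 6 haploid arrays lay below all 6 diploid arrays (31.3%, against 14.8% of all genes, beside the background of 7.54% called lower), and in 62 genes all lay above (6.84%, against 17.1%, beside 9.69% called higher). The arrays of the ploidies overlapped in the remaining 561 genes. Some genes were called against the median of their line. In haploid EpiSC-1 208 genes were higher (22.9%, against 37.5% of all genes), and in diploid EpiSC-1 139 were lower (15.3%, against 32.1%). Not called in either direction were 274 genes of haploid EpiSC-1 and 241 of diploid EpiSC-1. The shares called were 69.8% and 73.4% in these lines, against 69.8% and 66.4% of all genes.

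Chromosome 11 was set beside the other autosomes. In diploid EpiSC-1 its median of 0.22 lay above those of all 18 other autosomes, which ran from -0.08 to 0.11, and in haploid EpiSC-2 its median of -0.17 lay below all 18, which ran from -0.05 to 0.09. In diploid EpiSC-2 chromosome 13 had a higher median, of 0.14, than the 0.09 of chromosome 11. In haploid EpiSC-1 chromosome 13 had a lower one, of -0.35, than the -0.11 of chromosome 11, and chromosome 6 stood at 0.25. For haploid minus diploid, chromosome 11 was the lowest of the 19 autosomes at -0.31, and chromosome 13 was next at -0.26. No test was made of these medians, since the chromosome had been picked for its shift.

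**Figure D2:**
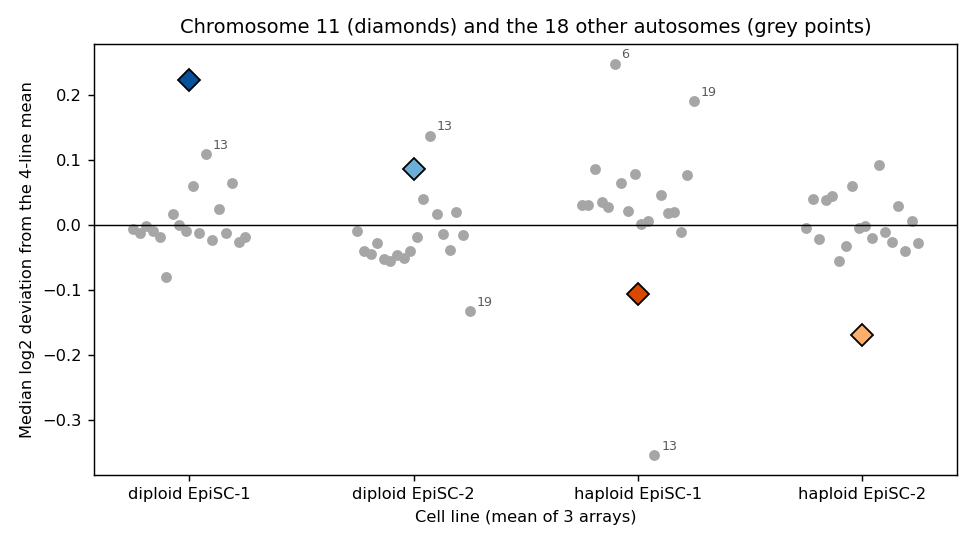
Median log2 deviation of each autosome from the mean of the 4 lines, per line (mean of 3 arrays), with chromosome 11 as diamonds and the 18 other autosomes as grey points, numbered where they lie far out. Chromosome 11 is the highest in diploid EpiSC-1 (0.22) and the lowest in haploid EpiSC-2 (-0.17), while chromosome 13 lies farther out in diploid EpiSC-2 (0.14) and in haploid EpiSC-1 (-0.35).

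Between the 2 haploid lines the chromosome 11 genes differed little in their median. Haploid EpiSC-2 minus haploid EpiSC-1 had a median of -0.07 on the log2 scale against -0.05 over all genes, with 209 genes higher and 297 lower (limma, adjusted p under 0.05). The background of this comparison was 56.6% called, with 25.7% higher and 31.0% lower, and 55.8% of the chromosome 11 genes were called. Between the diploid lines, EpiSC-2 minus EpiSC-1 had a median of -0.12 against -0.01 over all genes, with 168 genes higher and 379 lower, beside a background of 55.8% called, 26.4% higher and 29.4% lower. Of the 907 genes, 41.8% were thus lower in diploid EpiSC-2 than in diploid EpiSC-1. Chromosome 11 had the lowest median of the 19 autosomes in this comparison, and the 18 others ran from -0.11 to 0.06.

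The order of the genes was divided into 12 consecutive blocks of 75 or 76 genes. The haploid minus diploid median was below 0 in all 12 blocks and ran from -0.41 in block 7, from Ssh2 to Znhit3, to -0.21 in block 4, from Sap30l to Hs3st3b1. Block medians of diploid EpiSC-1 were above 0 in all 12 blocks and ran from 0.15 in block 3 (Rnf145 to Galnt10) to 0.36 in block 7. Those of diploid EpiSC-2 were above 0 in 11 blocks and ran from -0.01 in block 12 (Srsf2 to Metrnl), a value that was above 0 when arrays were centred on their medians, to 0.22 in block 2 (Wdr92 to Ublcp1). Haploid EpiSC-1 was below 0 in all 12 blocks, from -0.19 in block 7 to -0.01 in block 4. Haploid EpiSC-2 was below 0 in all 12 blocks within a narrow range, from -0.21 in block 8 (Car4 to Cbx1) to -0.11 in block 4. The array medians of the ploidies did not overlap in 11 blocks and overlapped in 1, block 4.

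**Figure D3:**
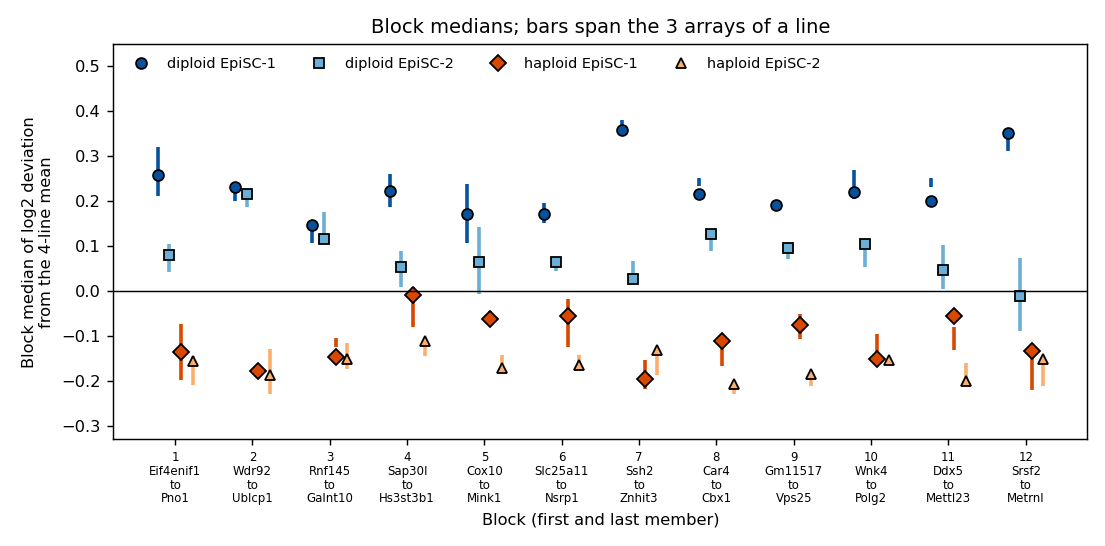
Block medians of the log2 deviation from the mean of the 4 lines, in order along chromosome 11, with each block's first and last gene. A symbol is the median over the genes of the mean of a line's 3 arrays, and a bar spans the medians of the 3 single arrays, so a symbol can lie outside its bar. Diploid EpiSC-1 lies above 0 in all 12 blocks (0.15 to 0.36) and haploid EpiSC-2 below 0 in all 12 (-0.21 to -0.11).

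The genes of the other autosomes were divided in the same way into 129 blocks of 70 to 80 genes. Their haploid minus diploid medians ran from -0.38, on chromosome 13, to 0.30, on chromosome 19, and 2 of the 129 lay below the middle block of chromosome 11 (-0.31). In haploid EpiSC-2 the other blocks ran from -0.14 to 0.20, and none of the 129 lay below the middle block of chromosome 11 (-0.16). In diploid EpiSC-1 1 of the 129 lay above the middle block (0.22). In diploid EpiSC-2 and haploid EpiSC-1 the blocks of chromosome 11 lay further within the range of the others: 7 of the 129 lay above its middle block of 0.07 in diploid EpiSC-2, and 6 lay below its middle block of -0.12 in haploid EpiSC-1.

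A running median over 31 neighbouring genes gave 877 windows. In diploid EpiSC-1 it stayed above 0 in all 877 and ran from 0.04, in the window centred on Slc22a5, to 0.44, centred on Tada2a. In haploid EpiSC-2 it stayed below 0 in all 877 and ran from -0.33, at Ube2o, to -0.02, at Rflnb. Diploid EpiSC-2 was above 0 in 740 windows, with its lowest value of -0.11 at Cox10, and haploid EpiSC-1 was below 0 in 767, with its highest value of 0.14 at Timp2. For haploid minus diploid, 876 of the 877 windows lay below 0, and the remaining window, at Cox10, stood at 0.01. Windows overlap and share genes, so their number is not a number of independent measurements.

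**Figure D4:**
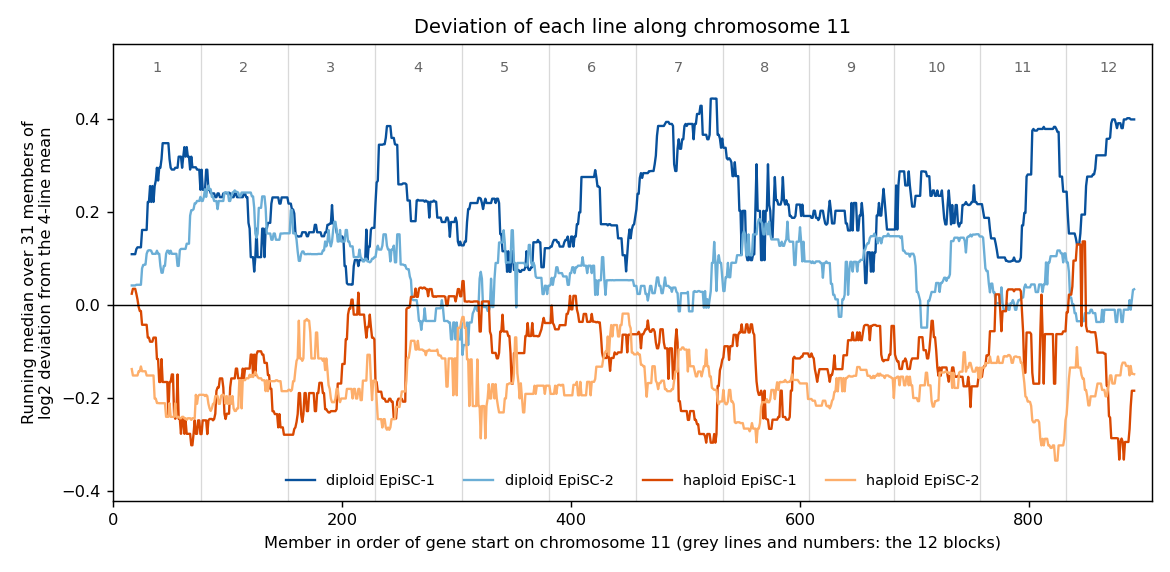
Running median over 31 genes of the log2 deviation from the mean of the 4 lines, against the place of a gene in the order along chromosome 11, with the 12 blocks marked. Diploid EpiSC-1 stays above 0 (0.04 to 0.44) and haploid EpiSC-2 below 0 (-0.33 to -0.02), whereas diploid EpiSC-2 and haploid EpiSC-1 cross 0 in places.

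For each line the order was split once, at the place with the largest difference between the medians before and after it, with at least 50 genes on each side. In diploid EpiSC-1 this was between Slc26a11 and Rnf213, with a median of 0.21 before and 0.40 over the last 50 genes. Haploid EpiSC-1 split at the same place, with -0.10 before and -0.24 after. Diploid EpiSC-2 split between Mxra7 and Jmjd6, from 0.09 to -0.01 over the last 77 genes. Haploid EpiSC-2 split between Cd300c2 and Slc9a3r1, from -0.16 to -0.20 over the last 119. This last step of -0.04 ran from -0.08 to 0.004 in the 3 arrays, and the smallest such step on the 18 other autosomes was 0.05 in size. In diploid EpiSC-1, diploid EpiSC-2 and haploid EpiSC-1 the steps were 0.18, -0.10 and -0.14. On the other autosomes their median sizes were 0.10, 0.10 and 0.13. In 3 of the lines the median kept its sign on both sides, and in diploid EpiSC-2 it fell to about 0. The first 2 splits lay at the edge of the range allowed, and none was tested.

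Neighbouring genes were only weakly alike. The rank correlation between a gene's deviation and that of the next gene was 0.04 to 0.08 in the 4 lines over 906 pairs, and its median over the other autosomes was 0.04 to 0.09. Pairs share genes, and both values of a pair come from the same libraries.

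The chromosome 11 genes were set beside all genes of like signal and length. Haploid minus diploid medians were -0.17 in the dimmest 303 of the 907 genes, -0.32 in the next 302 and -0.39 in the brightest 302, against 0.10, 0.03 and -0.08 among all genes tested in the same signal ranges. In each range the chromosome 11 genes were below all genes of like signal. The shortest 302 genes had a median of -0.41, against -0.09 among all genes of such lengths, the next 302 had -0.26 against -0.02, and the longest 303 had -0.26 against 0.09. The medians of all genes changed along both scales as well. The 826 genes that stayed within 2-fold of the mean in every line had a median of -0.31. The 81 genes beyond it had -0.35, where all genes beyond it stood at 1.17. Of the 81 genes 51.9% lay below 0, against 75.8% of the 826 and 30.8% of all genes beyond 2-fold. The median deviation of the 81 genes in haploid EpiSC-1 was 0.30. Of the 907 genes, 427 had a second probe set above the threshold, and on it the median was -0.25, against 0.07 over all second probe sets.

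The genes with the lowest p of haploid against diploid in each block were of both directions. In 8 of the 12 blocks such a gene fell in the haploid lines, and in the other 4 it rose. They were chosen by their p, so that their size is a description.

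Dcxr (Entrez 67880, block 12) had signals of 1623, 1736 and 1592 in diploid EpiSC-1, 2102, 2292 and 2346 in diploid EpiSC-2, 277, 263 and 227 in haploid EpiSC-1 and 93.6, 122 and 108 in haploid EpiSC-2. Both diploid lines were high, haploid EpiSC-1 was low and haploid EpiSC-2 lower still. The log2 difference was -3.54 ± 0.34 (SE, limma adjusted p = 5.1e-06), and it is the largest fall among the genes of the metabolic list. Of the haploid lines EpiSC-2 was the lower, with a log2 difference from EpiSC-1 of -1.25 ± 0.10 (adjusted p = 1.2e-07).

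Glod4 (Entrez 67201, block 6), a protein with glyoxalase domains, had signals of 6846, 6658 and 6637 in diploid EpiSC-1, 7158, 6746 and 6829 in diploid EpiSC-2, 3207, 2703 and 2785 in haploid EpiSC-1 and 2551, 2413 and 2513 in haploid EpiSC-2. The diploid lines overlapped each other, and the haploid lines lay far below them. The log2 difference was -1.34 ± 0.15 (SE, limma adjusted p = 1.6e-05). Hmmr (Entrez 15366, block 2) gave 5010, 4884 and 5047 in diploid EpiSC-1, 5374, 5114 and 5419 in diploid EpiSC-2, 2611, 2632 and 2576 in haploid EpiSC-1 and 2467, 2336 and 2254 in haploid EpiSC-2. Both haploid lines were near each other and below both diploid lines (log2 difference -1.05 ± 0.12, limma adjusted p = 2.0e-05). On 4 other probe sets of Hmmr the difference ran from -0.78 to -0.60.

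Cldn7 (Entrez 53624, block 5), a claudin of epithelial tight junctions, had signals of 5007, 4324 and 5177 in diploid EpiSC-1, 2385, 2060 and 2246 in diploid EpiSC-2, 545, 493 and 603 in haploid EpiSC-1 and 680, 706 and 848 in haploid EpiSC-2. All 4 lines were apart from each other. The haploid minus diploid log2 difference was -2.37 ± 0.32 (SE, limma adjusted p = 1.1e-04), and diploid EpiSC-2 was lower than diploid EpiSC-1 by a log2 difference of -1.12 ± 0.10 (adjusted p = 2.1e-07).

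Taf15 (Entrez 70439, block 7), an RNA-binding protein of the FET family, had signals of 790, 888 and 816 in diploid EpiSC-1, 589, 673 and 640 in diploid EpiSC-2, 251, 225 and 242 in haploid EpiSC-1 and 209, 246 and 217 in haploid EpiSC-2. The haploid lines overlapped each other and the diploid lines did not (haploid minus diploid -1.65 ± 0.24, limma adjusted p = 2.3e-04). Tom1l1 (Entrez 71943, block 8), an endosomal adaptor, gave 1203, 1189 and 1232 in diploid EpiSC-1, 1017, 1160 and 1175 in diploid EpiSC-2, 430, 405 and 348 in haploid EpiSC-1 and 402, 449 and 435 in haploid EpiSC-2. Nt5c (Entrez 50773, block 11), a nucleotidase of the cytosol, gave 1752, 1704 and 1603, then 1577, 1694 and 1531, then 488, 594 and 582, then 641, 653 and 603 in the lines in the same order. In both genes the 2 haploid lines were low, with log2 differences of -1.50 ± 0.22 for Tom1l1 (limma adjusted p = 2.0e-04) and -1.47 ± 0.20 for Nt5c (adjusted p = 1.1e-04). Nipsnap1 (Entrez 18082, block 1), a mitochondrial protein, had signals from 3466 to 4106 in the 6 diploid arrays and from 1871 to 2139 in the 6 haploid arrays (log2 difference -0.91 ± 0.14, limma adjusted p = 4.3e-04). It was not called with line means as the units (adjusted p = 0.066), whereas Dcxr, Glod4, Hmmr, Cldn7, Taf15, Tom1l1 and Nt5c were.

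The 4 genes that rose did so unequally in the haploid lines. Pmp22 (Entrez 18858, block 4), a membrane protein first known from peripheral myelin, had signals of 123, 105 and 124 in diploid EpiSC-1, 156, 128 and 126 in diploid EpiSC-2, 3177, 3207 and 3014 in haploid EpiSC-1 and 732, 658 and 596 in haploid EpiSC-2. The diploid lines were close together, and haploid EpiSC-1 lay well above haploid EpiSC-2 (log2 difference between the haploid lines -2.25 ± 0.11, limma adjusted p = 5.5e-10). Igfbp4 (Entrez 16010, block 9), which binds insulin-like growth factors, had 371, 340 and 373, then 357, 289 and 288 in the diploid lines, and 2311, 2314 and 2403, then 894, 936 and 913 in the haploid lines. Mrc2 (Entrez 17534, block 10), a receptor for the uptake of collagen, had 345, 283 and 312, then 213, 199 and 189, against 1037, 1145 and 1025, then 596, 624 and 595. 9530068E07Rik (Entrez 213673, block 3) had 1041 to 1166 in the diploid arrays, 2960 to 3165 in haploid EpiSC-1 and 2045 to 2173 in haploid EpiSC-2.

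Haploid EpiSC-1 was thus the highest line in all 4. The differences, haploid minus diploid, were 3.51 ± 0.48 for Pmp22, 2.13 ± 0.32 for Igfbp4, 1.69 ± 0.29 for Mrc2 and 1.20 ± 0.17 for 9530068E07Rik (SE, limma adjusted p from 1.1e-04 to 8.3e-04). With line means as the units none of the 4 was called (limma adjusted p 0.061, 0.070, 0.082 and 0.067 in the same order). On another probe set above the threshold, 9530068E07Rik had a difference of -0.03.

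**Figure D5:**
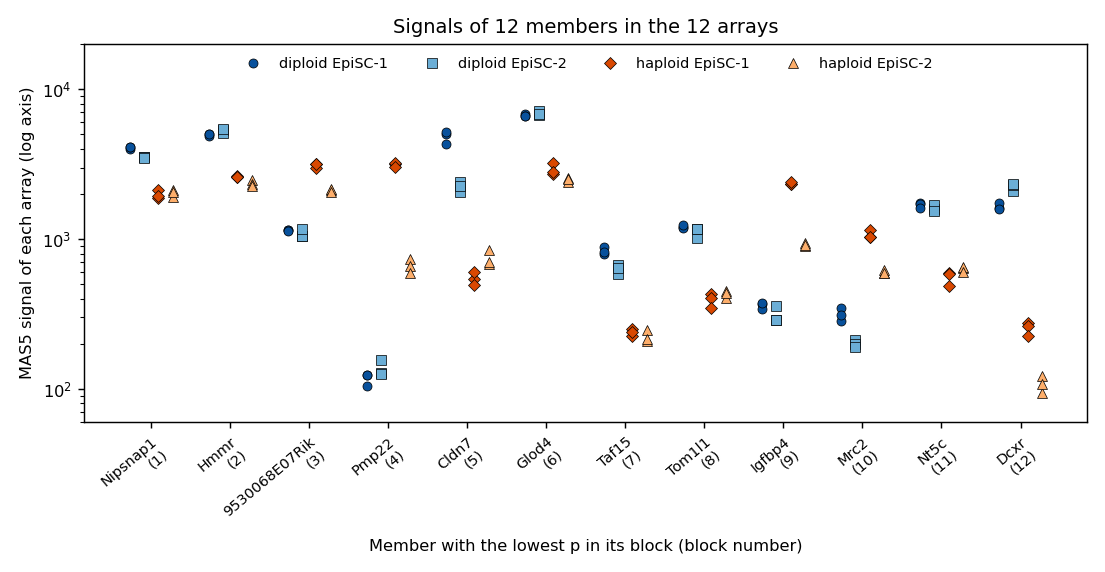
MAS5 signal (log axis) in each of the 12 arrays of the gene with the lowest p of haploid against diploid in each block of chromosome 11, block number in brackets. In 8 genes the haploid arrays lie below the diploid ones, as in Dcxr (93.6 to 277 against 1592 to 2346), and in Pmp22, Igfbp4, Mrc2 and 9530068E07Rik they lie above, with haploid EpiSC-1 highest.

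The genes whose 4 deviations were nearest to their block's medians are described next. They were chosen for that nearness, so their values illustrate the block medians and support nothing on their own. Vps54 had signals of 2396, 2534 and 2533 in diploid EpiSC-1, 2355, 2333 and 2439 in diploid EpiSC-2, 1896, 1758 and 1699 in haploid EpiSC-1 and 1829, 1993 and 1680 in haploid EpiSC-2. All haploid arrays were below all diploid arrays, and yet the difference of -0.43 ± 0.16 missed the threshold (limma adjusted p = 0.077). Becn1, a core protein of autophagy, had 4120, 4138 and 3798, then 3980, 4000 and 3650 in the diploid lines, and 3212, 3417 and 3276, then 3206, 3326 and 3167 in the haploid lines, also without overlap (-0.27 ± 0.13, limma adjusted p = 0.18). Ddc had 468 to 601 in diploid EpiSC-1, 423 to 467 in diploid EpiSC-2, 369 to 409 in haploid EpiSC-1 and 335 to 405 in haploid EpiSC-2, a difference of -0.37 ± 0.27 (limma adjusted p = 0.39).

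The other typical genes had differences between -0.34 and -0.06, and none of the 12 passed the test. Zfp830 stood at -0.34, the exchange factor gene Rapgef6 at -0.30, Faap100 of the Fanconi anaemia core complex at -0.27, the transcription factor gene Stat5b at -0.25, the sorting nexin gene Snx11 at -0.24 and the G protein subunit gene Gna13 at -0.23. Slc25a11, the mitochondrial carrier of oxoglutarate and malate, stood at -0.20, the kinase gene Mink1 at -0.19 and Smcr8, a regulator of autophagy, at -0.06. The haploid minus diploid median of the block of Smcr8, block 4, was -0.21. Slc25a11 had 1738 to 1766 in diploid EpiSC-1, 1638 to 1690 in diploid EpiSC-2, 1548 to 1618 in haploid EpiSC-1 and 1322 to 1425 in haploid EpiSC-2, so that all 4 lines were apart from each other while the steps between them were small. When all probe sets of a gene were averaged, Ddc stood at 0.02, Stat5b at 0.46 and Smcr8 at -1.92. In each of these genes the other probe set lay below the signal threshold. Probe sets above the threshold differed as well. On those not used here the difference ran from -0.52 to 0.69 in Gna13 and from -0.42 to 0.67 in Rapgef6.

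Genes were also grouped by function, in lists that took in 275 of the 907 genes, 27 of them in several lists. The lists were written with earlier results of these data known, so their shares are a description. List genes were not matched to other genes by signal. The share called in a list stands beside that of all genes tested (7.54% lower, 9.69% higher) and that of the 907 genes (19.8% lower, 2.98% higher, median -0.31). In the list of replication and S phase all 17 measured genes had a negative difference, with a median of -0.32, and 3 fell and none rose. The 3 are 17.6% of the list, a share near the 19.8% of the 907 genes and above the 7.54% of all genes. Rpa1, a subunit of the protein that covers single-stranded DNA, fell by 0.65 on the log2 scale (SE 0.14, limma adjusted p = 0.0053). Pold2, a subunit of DNA polymerase delta, fell by 0.48, and Top2a, topoisomerase II alpha, by 0.38. Top2a had 14929, 15549 and 16139, then 13886, 13677 and 14782 in the diploid lines, and 11066, 11609 and 12004, then 11150, 11338 and 11219 in the haploid lines, with no overlap (limma adjusted p = 0.032). Without diploid EpiSC-1, without haploid EpiSC-2, after quantile normalization and with the filter at the upper quartile of signals Top2a was not called. In the same list 13 of the 17 genes were lower in diploid EpiSC-2 than in diploid EpiSC-1 and 2 were higher, with a median of -0.44, and the 76.5% that were lower stand beside 41.8% of the 907 genes and 29.4% of all genes.

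Of 26 genes listed under mitosis and cytokinesis 11 fell, none rose and 15 were not called, with a median of -0.41. The share that fell was 42.3%, beside 19.8% of the 907 genes and 7.54% of all genes. Hmmr, Aurkb, the kinase of the chromosomal passenger complex (-0.67), Birc5, survivin of the same complex (-0.58), Spag5, astrin of the spindle (-0.48), and Pimreg (-0.53) were among those that fell. Others of the 11 are better known for other roles. Psmc3ip (-0.86) acts with recombinases, Eme1 (-0.70) is part of a structure-specific nuclease, Rnf167 (-1.02) is a ubiquitin ligase and Nlk (-0.47) a kinase of Wnt signalling. Psmc3ip had 2252, 2312 and 2473, then 2411, 2418 and 2182 in the diploid lines, and 1150, 1323 and 1280, then 1382, 1301 and 1329 in the haploid lines, so that both haploid lines were low (SE 0.16, limma adjusted p = 0.0019).

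Among 23 genes of DNA repair and the p53 network 9 fell and none rose, with a median of -0.48. These were 39.1%, beside 19.8% of the 907 genes and 7.54% of all genes. Rad51d, a paralogue of the strand-exchange protein, fell by 1.22 on the log2 scale, and Mpg, a DNA glycosylase, by 1.08 (SE 0.23, limma adjusted p = 0.0037). Rad50, of the complex that binds broken DNA ends, fell by 0.85 (SE 0.18, limma adjusted p = 0.0045), with 2326 to 2536 in diploid EpiSC-1, 1952 to 2093 in diploid EpiSC-2, 1101 to 1332 in haploid EpiSC-1 and 1168 to 1310 in haploid EpiSC-2. The haploid lines overlapped each other and were below both diploid lines. Nbr1 (-0.59), a receptor of selective autophagy, was also in this list and fell. Averaged over all their probe sets, neither Mpg nor Rad50 was called, and 2 other probe sets of Mpg above the threshold had differences of 0.01 and 0.00.

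Of 34 genes of Polycomb and other chromatin complexes 11 fell, 1 rose and 22 were not called, with a median of -0.45. The 32.4% that fell stand beside 19.8% of the 907 genes and 7.54% of all genes. Suz12, a core subunit of the Polycomb complex that methylates histone H3, fell by 0.49, Cdk12, a kinase of elongating RNA polymerase II, by 1.06, and the SWI/SNF subunits Smarce1 and Smarcd2 by 0.79 and 0.50. Mbtd1 fell by 0.78, and Tada2a, an adaptor of histone acetyltransferase complexes, by 0.86. Tada2a had 2715, 2575 and 2622, then 1981, 2082 and 2195 in the diploid lines, and 1308, 1176 and 1211, then 1370, 1358 and 1320 in the haploid lines. Its diploid lines were well apart and its haploid lines close together (haploid minus diploid SE 0.16, limma adjusted p = 0.0012). Chd3, a remodeller of the NuRD complex, rose by 1.12.

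The 44 genes of mRNA splicing, export and translation had 18 that fell, none that rose and 42 with a negative difference, with a median of -0.43. The share that fell was 40.9%, beside 19.8% of the 907 genes and 7.54% of all genes, and the share below 0 was 95.5%, beside 73.6% and 49.8%. They included genes of mitochondrial ribosomal proteins, Mrpl55 (-1.10), Mrps24 (-0.71), Mrps23 (-0.66), Mrpl27 (-0.64), Mrpl12 (-0.63), Mrpl10 (-0.53) and Mrpl45 (-0.45), and of ribosome assembly, Nol11 (-0.81), Utp18 (-0.75) and Tsr1 (-0.68). Xpo1, the main nuclear export receptor, fell by 0.39, and Canx, a chaperone of the endoplasmic reticulum and no splicing or translation factor, by 0.37. Nup85, a nucleoporin, had 4268, 4112 and 4295, then 3546, 3312 and 3550 in the diploid lines, and 1661, 1720 and 1632, then 2277, 2235 and 2393 in the haploid lines. All 4 lines were apart from each other, with haploid EpiSC-1 the lowest (haploid minus diploid -0.96 ± 0.16, limma adjusted p = 4.8e-04). Between the haploid lines, 27 of the 44 were higher in EpiSC-2 and 5 lower, with a median of 0.26. The share higher was 61.4%, beside 23.0% of the 907 genes and 25.7% of all genes. Between the diploid lines 25 were lower in EpiSC-2 and 5 higher, with a median of -0.23, and the 56.8% that were lower stand beside 41.8% of the 907 genes and 29.4% of all genes.

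Among 36 genes of the proteasome and of ubiquitin ligases 9 fell and 1 rose, with a median of -0.33. The share that fell, 9 of 36, lies near the 19.8% of the 907 genes and above the 7.54% of all genes. The proteasome genes Psmb3 (-0.64), Psmd12 (-0.64) and Psme4 (-0.73) fell, as did Cops3 (-0.52) of the signalosome and the F-box gene Fbxl20 (-0.98). Psmb3 had 11650 to 12136 in diploid EpiSC-1, 13826 to 14106 in diploid EpiSC-2, 7899 to 8206 in haploid EpiSC-1 and 8300 to 8736 in haploid EpiSC-2, with all 4 lines apart (SE 0.10, limma adjusted p = 5.4e-04). Trim25, a ubiquitin ligase of antiviral sensing, was the gene that rose. Its signals were 86.7, 39.8 and 60.3, then 63.6, 34.2 and 51.0 in the diploid lines, around the signal threshold of 62.6, and 1457, 1367 and 1570, then 617, 572 and 601 in the haploid lines (4.13 ± 0.64, limma adjusted p = 3.5e-04). A second probe set of Trim25 gave 4.10.

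Of 44 mitochondrial and metabolic genes 9 fell, 1 rose and 34 were not called, with a median of -0.29. Both the 20.5% that fell and the median were near those of the 907 genes. Beside Dcxr, the purine synthesis gene Pfas fell by 1.10, Cox11, an assembly factor of cytochrome oxidase, by 0.96, the fatty acid synthase gene Fasn by 0.79, Uqcrq of respiratory complex III by 0.78, Shmt1 of folate metabolism by 0.65 and Acly, ATP citrate lyase, by 0.62. Cox11 had 2209, 2277 and 2081, then 2302, 2273 and 2126 in the diploid lines, and 1013, 1024 and 1046, then 1268, 1272 and 1242 in the haploid lines, with haploid EpiSC-1 lowest (SE 0.14, limma adjusted p = 3.0e-04). Ugp2, UDP-glucose pyrophosphorylase, rose by 0.84. Sar1b (-0.44), a GTPase of vesicle coats, was listed here and fell.

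Medians nearer to 0 were found in the lists of signalling, development and adhesion. Among 27 genes of Wnt, FGF, Hedgehog and TGF beta signalling 3 fell, 1 rose and 23 were not called, with a median of -0.04. The 11.1% that fell lie between the 7.54% of all genes and the 19.8% of the 907. Igfbp3, which binds insulin-like growth factors, had 5061, 5060 and 5239, then 11754, 11879 and 11305 in the diploid lines, and 2796, 3046 and 2846, then 4090, 4067 and 4182 in the haploid lines. Diploid EpiSC-2 stood above all other lines (haploid minus diploid -1.16 ± 0.25, limma adjusted p = 0.0046), and without haploid EpiSC-1 Igfbp3 was not called. The adaptor gene Grb7 fell by 1.47, with 1063 to 1172 in diploid EpiSC-1, 388 to 437 in diploid EpiSC-2, 260 to 316 in haploid EpiSC-1 and 196 to 221 in haploid EpiSC-2, and most of that range lay between diploid EpiSC-1 and the other lines.

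Of 21 genes listed as developmental transcription factors 3 rose, 1 fell and 17 were not called, with a median of -0.21. The share that rose was 14.3%, beside 9.69% of all genes and 2.98% of the 907, and the share that fell was 4.76%, beside 7.54% and 19.8%. Meis1, a TALE homeobox gene, rose by 3.26, with diploid EpiSC-1 under the signal threshold, so that the size is uncertain, and by 1.25 on another probe set, and Stat3, the factor of LIF signalling, by 1.32. Sox9, a factor of cartilage and other lineages, had 93.2, 81.2 and 102, then 50.3, 44.4 and 82.6 in the diploid lines, and 492, 437 and 540, then 248, 197 and 244 in the haploid lines. It was highest in haploid EpiSC-1 (2.21 ± 0.55, limma adjusted p = 0.011), and without that line it was not called. Tada2a, the adaptor of histone acetyltransferase complexes, was also in this list and was the gene that fell. The share that fell rests on it alone. Among 31 genes of the cytoskeleton and adhesion 2 rose and 1 fell, with a median of -0.07. These were 6.45% higher and 3.23% lower, both below the 9.69% and 7.54% of all genes. Timp2, an inhibitor of metalloproteinases, had 454, 369 and 393, then 624, 609 and 653 in the diploid lines, and 4025, 3522 and 4072, then 2119, 2296 and 2197 in the haploid lines (2.53 ± 0.27, limma adjusted p = 1.1e-05). Tns3, a tensin of focal adhesions, rose by 0.86. The medians of the lists were not tested against each other. With line means as the units, Hmmr, Taf15, Dcxr, Trim25 and Timp2 were still called, and Rpa1, Top2a, Psmc3ip, Mpg, Rad50, Igfbp3, Igfbp4, Tada2a, Sox9, Mrpl55, Nup85, Psmb3, Cox11 and Tns3 were not (limma adjusted p from 0.054 for Mpg to 0.19 for Top2a). Averaged over all probe sets, Top2a, Sox9, Cox11, Tns3, Mrc2 and 9530068E07Rik were not called either.

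Several genes with the largest deviations of single lines went against the common direction or against the ploidy. Lhx1, a LIM homeobox gene, had signals of 1240, 1272 and 1322 in diploid EpiSC-1, 484, 413 and 459 in diploid EpiSC-2, 6.09, 49.2 and 45.6 in haploid EpiSC-1 and 821, 888 and 864 in haploid EpiSC-2. The 2 haploid lines were thus on opposite sides of diploid EpiSC-2, and haploid EpiSC-1 lay below the signal threshold in all 3 arrays, so the size of its difference is uncertain (EpiSC-2 minus EpiSC-1 5.17 ± 0.53, limma adjusted p = 1.3e-06). Car4, a membrane-bound carbonic anhydrase, had 1917, 1858 and 1924, then 120, 170 and 157 in the diploid lines, and 409, 406 and 401, then 3032, 3041 and 2888 in the haploid lines. The highest and the lowest line were of unlike ploidy, and within each ploidy the lines differed, by -3.69 ± 0.10 between the diploid (limma adjusted p = 4.0e-13) and 2.88 ± 0.10 between the haploid lines (adjusted p = 1.6e-11).

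Meis1 rose by steps over the lines, from 31.4, 18.3 and 8.78 in diploid EpiSC-1 and 104, 77.1 and 77.1 in diploid EpiSC-2 to 189, 197 and 199 in haploid EpiSC-2 and 675, 712 and 675 in haploid EpiSC-1. Averaged over its probe sets, its deviation in diploid EpiSC-1 was -1.10 in place of -2.79. Acyp2, an acylphosphatase, was low in diploid EpiSC-1 alone, with 40.9, 32.0 and 12.3 against 148 to 194 in diploid EpiSC-2 and 223 to 437 in the haploid arrays. LOC102631979 had 445 to 583 in the diploid arrays, 12.1 to 46.2 in haploid EpiSC-1 and 121 to 173 in haploid EpiSC-2. Both haploid lines were low, haploid EpiSC-1 below the signal threshold. Ntn1, the guidance cue netrin, had its lowest level in diploid EpiSC-2, with 128 to 140 against 294 to 337 in diploid EpiSC-1, 792 to 887 in haploid EpiSC-1 and 463 to 503 in haploid EpiSC-2.

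Hs3st3b1, a heparan sulfate sulfotransferase gene, was likewise lowest in diploid EpiSC-2 (27.0 to 37.8) and reached 222 to 309 in the haploid arrays. Slit3, another guidance cue, had 120 to 145 in diploid EpiSC-1, 4.12 to 62.7 in diploid EpiSC-2, 35.4 to 49.1 in haploid EpiSC-1 and 199 to 250 in haploid EpiSC-2. Cd68, a lysosomal glycoprotein of macrophages, had its highest signals in diploid EpiSC-2, 307 to 342, and 40.6 to 132 in the other lines. Shisa6, an auxiliary protein of glutamate receptors, was also highest there, with 445 to 506 against 214 to 232 in diploid EpiSC-1 and 34.2 to 74.5 in the haploid arrays. Sp6 and Aipl1 were lowest in haploid EpiSC-2, with 14.2 to 58.4 and 9.68 to 46.4, under the signal threshold in every array of that line. On another probe set of Sp6 above the threshold haploid EpiSC-2 was the highest line, with a deviation of 0.29. In each of these genes at least 1 line stood apart from the other 3.

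The labelled cell type was checked against its markers, none of which is among the 907 genes. All 12 epiblast markers were above the signal threshold, with summed signals of 91234 to 94699 in diploid EpiSC-1, 86836 to 89055 in diploid EpiSC-2, 48322 to 49100 in haploid EpiSC-1 and 62585 to 64323 in haploid EpiSC-2, and 7 of the 12 were called lower and 2 higher in haploid cells. Of 17 fibroblast markers 16 had a probe set, and their summed signals were 3318 to 3560, 9556 to 10053, 42163 to 43080 and 43031 to 44357 in the lines in the same order, with 12 of the 15 tested called higher and none lower. In diploid EpiSC-1 9 of the 16 were under the threshold in every array, and in the haploid lines none. In the same order of lines, the 9 markers of extraembryonic endoderm summed to 1779 to 1947, 1059 to 1125, 1149 to 1407 and 3463 to 3954. The 8 of trophoblast summed to 8699 to 9093, 26898 to 28387, 17733 to 18407 and 12037 to 12406. Of these markers 4 of the 9 and 3 of the 8 were under the signal threshold. Of the 5 tested in each set, 1 of endoderm and 2 of trophoblast were called higher in haploid cells and none lower. For all these marker sets the background over all genes tested was 9.69% called higher and 7.54% called lower. The part of these markers in the shift of chromosome 11 was not tested. Over all tested genes the median signal of an array was 643 to 681 in the diploid and 694 to 731 in the haploid lines, and centring the arrays on their medians moved the haploid minus diploid median of all genes from 0.00 to -0.10 and that of chromosome 11 from -0.31 to -0.41.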

How the data were processed

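Gene expression was measured in 12 Affymetrix mouse 430 2.0 arrays. The authors deposited linear signal intensities made with MAS5, per the submitters' processing notes, and its version is not given in the sources used here. They were used as log2 signals, with no further normalization and no pseudocount. Of 45037 probe sets that were not controls, 34945 had 1 gene symbol, 932 several and 9160 none, and those with several or none were left out. Genes were placed by Entrez identifier in a GRCm38.p6 table, used for names and order. Where a gene had several probe sets, as 557 of the 907 members did, the brightest was taken. The 12 blocks hold 75 or 76 genes each.

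Haploid and diploid cells were compared in limma 3.58.1 (R 4.3.3, statmod 1.5.0) with lines as a random block (correlation 0.806), and lines in a fit of 4 group means over all 12 arrays. Both used empirical Bayes moderation with an intensity trend, two-sided tests and Benjamini-Hochberg adjustment over 11105 genes. On simulated data the ploidy comparison called more unchanged genes than its threshold allows. Same-numbered replicates did not deviate together (correlations -0.05 to 0.08), so the numbers pair nothing. The number of arrays limits the precision, and neither detection calls nor dates of scanning were used.

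The genes named are those just inside and outside the threshold, the first and last of a block, the 3 highest and 3 lowest called deviations of a line that overlap no other array, the lowest p and the most typical gene of each block, and the 2 lowest p of each list. Other genes of the lists that passed the test, those at the ends of running medians and splits, and those with haploid lines on opposite sides of the diploid ones were chosen after their values were seen. The members and the lists were chosen with earlier results of these data known, and some lists hold genes better known for other roles. Alternatives were array centring, quantile normalization, a pseudocount of 16, other signal filters, the mean of all probe sets, a replicate block, line means and leaving out arrays or lines. The second brightest probe set was added after the data were seen.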

Additional observations from a re-analysis of the deposited data

How the results depend on the processing

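The medians over the chromosome 11 genes kept their sign under each alternative named here. With arrays centred on their medians, the median was -0.41 for haploid minus diploid, -0.0088 between the haploid and -0.065 between the diploid lines, and against the mean of the 4 lines 0.25 and 0.17 in the diploid lines EpiSC-1 and EpiSC-2 and -0.19 in both haploid lines. Quantile normalization gave -0.35, -0.026 and -0.10 for the 3 comparisons, 0.12 for diploid EpiSC-2 and -0.15 for haploid EpiSC-1. Without a signal filter 339 of 1424 chromosome 11 genes were called between the ploidies, against 207 of 907, with 53 higher and 286 lower, and the medians were -0.24, -0.10 and -0.066 for the comparisons, 0.16 for diploid EpiSC-1 and -0.056 for haploid EpiSC-1. With the filter at the upper quartile 134 of 581 were called, 14 of them higher, with medians of -0.36 between the ploidies and -0.0098 between the haploid lines, where 181 were lower. In that setting diploid EpiSC-1 had 75 genes lower and a median of 0.25, diploid EpiSC-2 124 lower and 0.12, haploid EpiSC-1 108 higher and -0.17, and haploid EpiSC-2 49 higher. Fewer genes are tested there. Averaging all probe sets of a gene, the medians were -0.28, -0.10 and -0.19, with 101 genes higher between the diploid lines, 0.24 in diploid EpiSC-1 and 0.046 in diploid EpiSC-2, and the difference of Ddc turned to 0.017 and that of Stat5b to 0.46. On the second brightest probe set, which 427 genes had, the medians were -0.25, 0.26 in diploid EpiSC-1, 0.019 in diploid EpiSC-2 and -0.15 in haploid EpiSC-2. The counts called under these alternatives stand without the share of all genes called in the same setting. The causes were not tested.

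Between the ploidies, the median was -0.24 without diploid EpiSC-1, -0.38 without diploid EpiSC-2 and -0.27 without haploid EpiSC-2, and the genes called higher numbered 41 without diploid EpiSC-2, 15 without haploid EpiSC-1 and 52 without haploid EpiSC-2. With line means as the units 20 genes were called, 6 higher and 14 lower. Leaving out each array in turn, the median between the diploid lines ran from -0.14 to -0.12, that between the ploidies from -0.32 to -0.31, and 192 to 205 genes were called between the ploidies. With a replicate block 192 genes were called between the ploidies, 28 higher and 164 lower. For none of these counts is the share of all genes called in the same setting given here. Of 960 block medians under the alternatives 801 moved by less than the spread between arrays, and 7 changed sign, all in diploid EpiSC-2. Of 1432 values of the named genes 1392 kept their side of the threshold, 32 lost the call, 6 gained it and 2 reversed. Where a line lies near the signal threshold of 62.6, the size of a difference is uncertain.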

Other observations

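In 11 of the 907 genes all arrays of haploid EpiSC-1 lay above, and all of haploid EpiSC-2 below, all diploid arrays (1.21%, against 1.19% of all genes tested). The reverse order was found in 2 genes, Hnrnph1 and Lhx1os (0.221%, against 1.12%). Inca1 had the largest such difference, with mean signals of 269 in haploid EpiSC-1, 73.2 in haploid EpiSC-2, 153 in diploid EpiSC-1 and 212 in diploid EpiSC-2 (EpiSC-2 minus EpiSC-1 of the haploid lines -1.88 ± 0.16 on the log2 scale). Naglu, a lysosomal enzyme that degrades heparan sulfate, had 306, 118, 191 and 218 in the same order (-1.37 ± 0.13). Hnrnph1, a splicing regulator, had 10241, 13331, 11991 and 12861 (0.38 ± 0.04), and Lhx1os, named for its place opposite Lhx1, 38.5, 123, 80.4 and 83.0 (1.71 ± 0.25). In these genes the haploid lines stood on opposite sides of the diploid ones, so that a mean over the haploid lines describes neither. They were found by looking for this order, which is a description and was not tested.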
